A study of Mus musculus with 9 samples.

Results

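The cytosolic heat shock chaperones described here are 6 mouse genes, Hspa1a, Hspa1b, Dnajb1, Hsph1, Hspb1 and Chordc1. They were chosen by name, with their group values already known, from 4277 genes listed in at least 1 of the authors' deposited tables, and all 6 were found there. The RNA came from thalamus of wild-type C57/BL mice on day 7, with 3 samples in each of the groups mmpp, stroke and sham. The study paired photothrombotic surgery, which blocks vessels by lighting a dye in the blood, with injection of a melanin nanozyme, a nanoparticle that acts like an enzyme. The labels used here do not spell out mmpp, name the vehicle, say which groups were injected, or give the age of the mice or whether a sample was 1 animal or a pool. Each value below is the authors' mean over a group in TPM, a share of all transcripts that is corrected for gene length. Values per library, their spread and the depth were not analysed here, so no mean carries an error. The tables list a gene only where its p-value was under 0.05 and its difference at least 2-fold. Of a gene outside a table nothing is known here but that it missed a limit or was left untested.

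Cells make these proteins to keep other proteins folded. Hsp70 proteins, encoded by Hspa1a and Hspa1b among others, grip unfolded stretches in a cycle driven by ATP. Dnajb1, a J-domain protein, hands substrates to Hsp70 and starts that cycle, and Hsph1, an Hsp110 protein, resets it by releasing ADP. Hspb1 is a small heat shock protein that holds unfolding proteins without ATP, and Chordc1 is a co-chaperone that binds Hsp90. Heat, oxidants and ischaemia switch these genes on through the transcription factor Hsf1, which binds repeats of a GAA unit in their promoters. In brain, Hspa1a and Hspa1b are strongly inducible, and Hspb1 is known from reactive astrocytes and vessel walls.

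The upstream sequences of Hspa1a and Hspa1b are shown because these genes had the largest differences of the 6 and are hard to tell apart. Both are 250 bases long, end at the base before the annotated start, and come from RefSeq on build GRCm38.p6, where Hspa1a lies at chr17:34972157-34972406 and Hspa1b at chr17:34959239-34959488, both on the minus strand. Capitals mark the heat shock element match.
Hspa1a: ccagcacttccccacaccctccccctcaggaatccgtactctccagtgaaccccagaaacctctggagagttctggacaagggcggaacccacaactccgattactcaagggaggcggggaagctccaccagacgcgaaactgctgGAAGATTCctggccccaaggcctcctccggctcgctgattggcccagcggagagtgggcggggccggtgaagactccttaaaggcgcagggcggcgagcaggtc
Hspa1b: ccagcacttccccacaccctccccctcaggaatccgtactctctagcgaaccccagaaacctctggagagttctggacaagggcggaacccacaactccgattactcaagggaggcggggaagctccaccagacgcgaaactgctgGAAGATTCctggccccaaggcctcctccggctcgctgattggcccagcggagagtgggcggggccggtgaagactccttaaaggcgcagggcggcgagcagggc

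Over the whole window of 300 bases, which adds 50 bases from the start on, Hspa1a and Hspa1b differed at 4 positions (98.7% identity). Counted from 1 at the 5′ end of the window, the changes from Hspa1a to Hspa1b were C44T, T47C, T249G and C276T. None of them lies in the marked element. The transcripts are also close: 47.1% of the 100-base stretches of Hspa1a and 49.9% of those of Hspa1b in GENCODE M21 occur in the other gene. No source used here says how the authors' counting shared such reads, so the split between Hspa1a and Hspa1b is uncertain, and their sum is given as well.

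A heat shock element was searched for as GAANNTTC or TTCNNGAA, each with a pair of GAA units in opposite orientation, and as a longer form that joins both, 3 alternating units that stand 2 bases apart. Both strands were read, and the longer form contains the shorter ones. At least 1 shorter form was found in the window of 5 of the 6 genes, all but Dnajb1. Over all RefSeq promoter windows of the same length it was found in 17.0% of 27025 genes, counting a gene once if any of its windows held it, and in 15.1% of 32851 windows. The longer form was found for 2 of the 6, Hsph1 and Chordc1, and in 0.662% of all genes or 0.603% of all windows. These sequences are shown to set the matches of Hspb1, Hsph1 and Chordc1 beside that of the Hsp70 genes, with matches in capitals and at chr5:135887779-135887848 (plus strand), chr5:149636337-149636386 (minus strand), chr5:149636288-149636300 (minus strand) and chr9:18292237-18292286 (plus strand) of GRCm38.p6.
Hspb1, before the start: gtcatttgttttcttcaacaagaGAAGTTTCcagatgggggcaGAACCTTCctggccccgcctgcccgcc
Hsph1, before the start: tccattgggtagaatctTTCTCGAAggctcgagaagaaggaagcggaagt
Hsph1, after the start: TTCTGGAAAGTTC
Chordc1, across the start: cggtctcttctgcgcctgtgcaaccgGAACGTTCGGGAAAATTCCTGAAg

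The marked bases lie 104 to 97 bases before the start in both Hsp70 genes. Hspb1 has a match beginning at base -117 and another at base -97. In Chordc1 the units follow each other over the start, from base -4 to base 19, with 2 bases between them. A match is a run of letters and not a measured binding site, and the windows hold only what lies near the annotated starts.

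**Figure D1:**
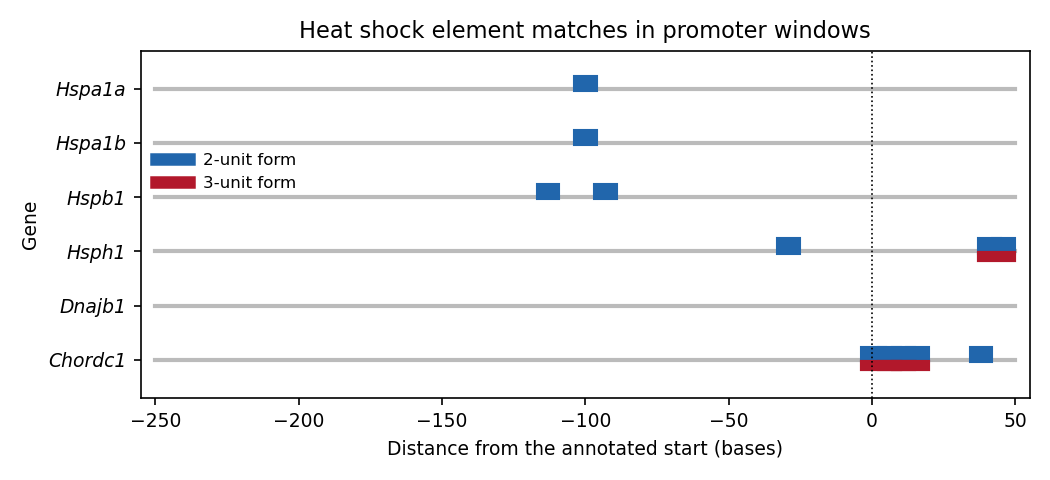
Position of heat shock element matches in the promoter window of each gene. The horizontal axis is the distance in bases from the annotated start (dotted line), each grey line is a window of 300 bases, blue boxes are the shorter form and red boxes the longer form. The Hsp70 genes and Hspb1 have matches only before the start, and Dnajb1 has none.

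The stroke group was set against the sham group to ask what injury did to thalamic genes. All 6 chaperone genes fell after stroke, by 2.30-fold to 15.99-fold, each with an authors' q-value (an adjusted p-value) under 0.05. In the same comparison 3.37% of 20804 genes adjusted by the authors were lower with a q-value under 0.05, and 7.59% were listed lower. The 6 were chosen with these values known, so the count describes them and tests nothing. Summed over the 6 genes, the authors' deposited table had 173.9 TPM in stroke and 634.1 TPM in sham.

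The inducible Hsp70 genes differed most. Hspa1a averaged 7.69 TPM in stroke and 98.6 TPM in sham in the authors' deposited table, 12.8-fold lower (log2 fold change -3.68, q = 5.06e-19). Hspa1b averaged 4.69 TPM in stroke and 74.9 TPM in sham in the authors' deposited table, 15.99-fold lower (log2 fold change -4.00, q = 2.23e-14). Hspa1b thus had the lowest mean of the 6 in stroke. The sum of both was 12.4 TPM in stroke and 173.6 TPM in sham, 14.0-fold apart, and in this sum reads given to one gene in place of the other nearly cancel. Any shared reads that were counted for neither gene would be missing from the sum as well. The ratio of Hspa1a to Hspa1b was 1.64 in stroke and 1.32 in sham. By p-value Hspa1a ranked 109 and Hspa1b ranked 230 among the 20804 genes. Of the 701 genes that fell, 22 with no mean at the authors' floor of 0.0001 TPM had a larger fold change than Hspa1a, and 15 a larger one than Hspa1b.

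The partners of Hsp70 fell less. Dnajb1, the J-domain partner, averaged 27.2 TPM in stroke and 116.4 TPM in sham in the authors' deposited table, 4.28-fold lower (log2 fold change -2.10, q = 1.56e-06). Hsph1, the Hsp110 exchange factor, had the highest mean of the 6 in sham, with 62.8 TPM in stroke and 167.8 TPM in sham in the authors' deposited table, 2.67-fold lower (log2 fold change -1.42, q = 0.0183). The difference between the fold changes of these genes and those of the Hsp70 genes was not tested.

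The remaining genes act beside the Hsp70 cycle. Hspb1, the small heat shock protein, averaged 64.3 TPM in stroke and 159.8 TPM in sham in the authors' deposited table, 2.48-fold lower (log2 fold change -1.31, q = 0.00248). The pseudogene Hsp25-ps1, which shares 85.3% of its 100-base stretches with Hspb1, was listed at 7.39 TPM in stroke and 22.4 TPM in sham in the authors' deposited table (q = 0.173), so part of the reads of either may belong to the other. Chordc1, the Hsp90 co-chaperone, had the lowest mean of the 6 in sham, with 7.16 TPM in stroke and 16.5 TPM in sham in the authors' deposited table, 2.30-fold lower (log2 fold change -1.20, q = 0.0144). The median log2 fold change of all 701 genes that fell was -1.42. Of those with no mean at the floor, 347 had a larger fold change than Hsph1, 442 a larger one than Hspb1 and 550 a larger one than Chordc1.

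The order of the 6 levels changed between groups. In stroke it ran, from high to low, Hspb1, Hsph1, Dnajb1, Hspa1a, Chordc1, Hspa1b. In sham it ran Hsph1, Hspb1, Dnajb1, Hspa1a, Hspa1b, Chordc1. Without values per library, neighbours in either order cannot be told apart.

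**Figure D2:**
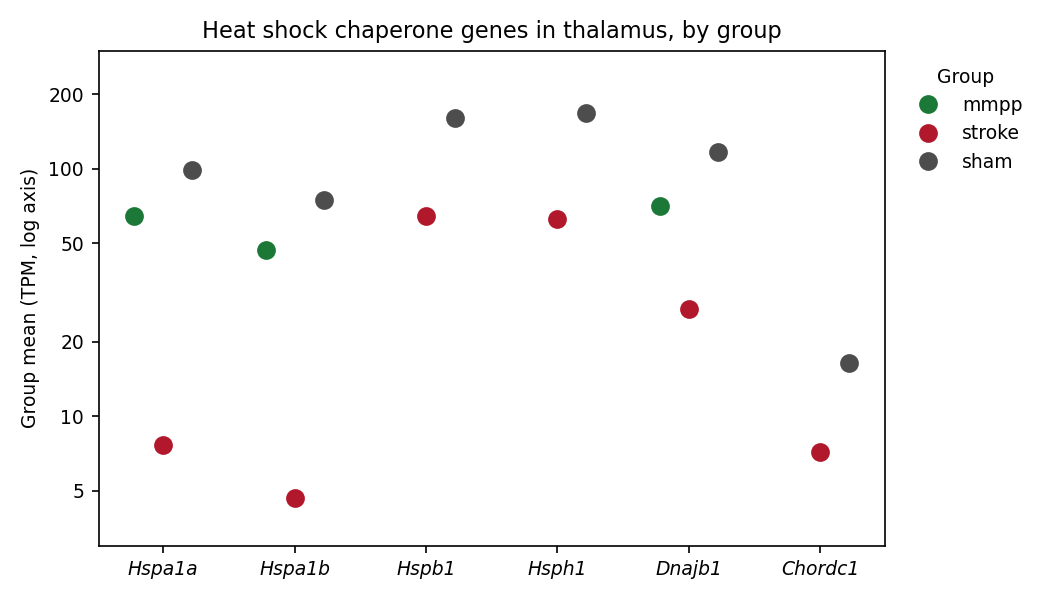
Group mean TPM (logarithmic axis) of the 6 chaperone genes, 1 point per group, with no error bars because the tables hold group means only. Stroke is below sham for all 6, and the 3 genes with an mmpp value (Hspa1a, Hspa1b and Dnajb1) lie between the other groups. A gene has an mmpp point only if it differed at least 2-fold from stroke, and mmpp was not tested against sham here. Hspb1, Hsph1 and Chordc1 have no mmpp point because they are not listed for mmpp against stroke.

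The mmpp group was set against the stroke group to ask whether chaperone genes differed between them. Hspa1a, Hspa1b and Dnajb1 were listed higher in mmpp, and none of the 6 passed a q-value of 0.05. Of 19616 genes adjusted by the authors in this comparison, 1.24% were listed higher and 0.0102% were higher with a q-value under 0.05, and 8 (0.0408%) passed that limit in either direction. Hspa1a averaged 64.3 TPM in mmpp and 7.69 TPM in stroke in the authors' deposited table, 8.36-fold higher (log2 fold change 3.06, q = 0.0707). Hspa1b averaged 47.0 TPM in mmpp and 4.69 TPM in stroke in the authors' deposited table, 10.02-fold higher (log2 fold change 3.33, q = 0.0572). Both q-values were above the limit of 0.05, with Hspa1a at the 13th and Hspa1b at the 11th smallest p-value of the comparison. Dnajb1 averaged 70.5 TPM in mmpp and 27.2 TPM in stroke in the authors' deposited table, 2.59-fold higher (log2 fold change 1.37, q = 0.574). The sum of Hspa1a and Hspa1b was 111.3 TPM in mmpp and 12.4 TPM in stroke, 8.99-fold apart.

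Both comparisons use the same stroke libraries, so a low value there enters both. The mmpp means of these 3 genes were below the sham means: Hspa1a reached 65.2%, Hspa1b 62.7% and Dnajb1 60.5% of its mean in sham, and Hspa1a plus Hspa1b 64.1%. The ratio of Hspa1a to Hspa1b was 1.37 in mmpp, against 1.32 in sham. No test of mmpp against sham was used here, and these percentages are descriptions of group means. Hsph1, Hspb1 and Chordc1 were not listed for mmpp against stroke, which gives them no mmpp value and does not show that they were equal.

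Other genes of the cytosolic chaperone system were counted in lists. For all lists below, 4071 genes were listed in either direction for stroke against sham, where 20804 were adjusted. For mmpp against stroke 1021 were listed, where 19616 were adjusted. After stroke, the cytosolic Hsp70 family had 3 of 8 genes listed, all lower. Beside Hspa1a and Hspa1b this was Hspa12a, a distant family member, at 29.7 TPM in stroke and 67.8 TPM in sham in the authors' deposited table (q = 0.173). The constitutive Hsp70 gene Hspa8 and the testis-rich Hspa1l, neighbour of Hspa1a, were not listed. In the Hsp110 family Hsph1 was the only 1 of 3 listed. Of 9 exchange factors and regulators of Hsp70 only Hspbp1, which releases nucleotide from Hsp70, was listed, and it fell to 117.2 TPM in stroke, against 247.2 TPM in sham, in the authors' deposited table (q = 0.0366). The stress-induced co-chaperone gene Bag3 was not listed.

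Listed J-domain genes went in both directions. Of 15 cytosolic ones, 6 were listed after stroke, 5 lower and 1 higher, and 3 fell and 1 rose. Over all adjusted genes 3.37% fell and 9.67% rose, so the 1 that rose is not read as a result about the list. Dnajc6, which encodes auxilin, the protein that strips clathrin from vesicles in nerve endings, had 13.7 TPM in stroke and 38.2 TPM in sham in the authors' deposited table (q = 0.00898). Dnaja4 had 17.7 TPM in stroke and 46.1 TPM in sham in the authors' deposited table (q = 0.0404). Dnajb4, a close relative of Dnajb1, went the other way, with 11.8 TPM in stroke and 5.11 TPM in sham in the authors' deposited table (q = 0.00628). Dnajc5, the cysteine string protein of synaptic vesicles, and Dnajb2, a neuronal co-chaperone, were listed lower with q-values of 0.0736 and 0.185 in the authors' deposited table. In mmpp against stroke, Dnajc6 was listed higher at 29.6 TPM in mmpp and 13.7 TPM in stroke (q = 0.799), and Dnajb4 lower at 3.83 TPM in mmpp and 11.8 TPM in stroke (q = 0.388), both in the authors' deposited table.

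Hsp90 genes and further chaperone groups are given as counts. Chordc1 was the only 1 of 19 genes of Hsp90 and its co-chaperones in the table for stroke against sham, and none was listed for mmpp against stroke. The inducible Hsp90aa1 and the co-chaperone genes Ahsa1, Stip1 and Fkbp4 were among those not listed. None of 14 genes of the chaperonin TRiC and prefoldin and none of 8 mitochondrial chaperone genes was listed in either comparison. Over all 20804 adjusted genes 7.59% were listed lower for stroke against sham, and 4071 genes were listed in either direction. With lists this small, the counts are not read as results about them. Of 5 genes of heat shock factors and their regulators, Hsf4 was listed lower, with 20.9 TPM in stroke and 42.6 TPM in sham in the authors' deposited table (q = 0.0618), and Hsf1 was not listed.

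The other listed small heat shock protein genes did not share the direction of Hspb1. Of 10 such genes, 4 were listed after stroke: Hspb1 fell, Hspb3 and Hspb6 rose, and Hspb11, whose protein works in intraflagellar transport, was higher at 50.4 TPM in stroke and 25.1 TPM in sham in the authors' deposited table (q = 0.115). In all, 9.67% of adjusted genes were higher with a q-value under 0.05. Hspb3 had 6.12 TPM in stroke and 0.938 TPM in sham in the authors' deposited table (q = 0.000113). Hspb6 had 48.3 TPM in stroke and 19.2 TPM in sham in the authors' deposited table (q = 0.0430). The lens and glial crystallin gene Cryab was not listed.

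Of 20 further genes known as targets of Hsf1, 3 were listed after stroke, 1 lower and 2 higher. With 4071 genes listed in either direction and 20804 adjusted, this count is not read as a result about Hsf1 targets. Dedd2, which encodes a death effector domain protein, fell to 11.5 TPM in stroke, against 43.3 TPM in sham, in the authors' deposited table (q = 3.22e-05). Ier5, whose product acts on Hsf1, had 18.2 TPM in stroke and 7.98 TPM in sham in the authors' deposited table (q = 0.00427), and Dnajb4, given above, rose too. Dedd2 was also listed higher in mmpp, with 26.0 TPM in mmpp and 11.5 TPM in stroke in the authors' deposited table (q = 0.787).

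**Figure D3:**
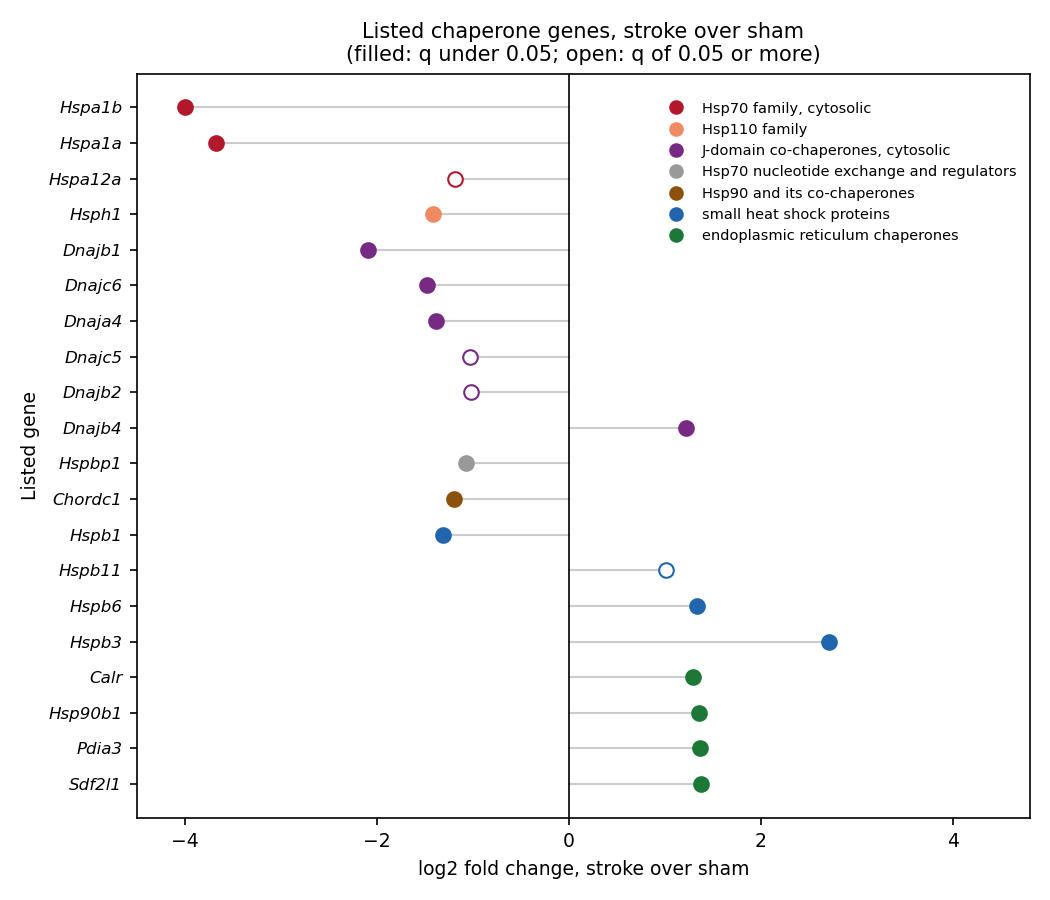
Authors' log2 fold change, stroke over sham, of every gene of 7 chaperone lists that is in the table (horizontal axis), grouped by list. Filled points have a q-value under 0.05, open points do not, and genes that are not listed are not drawn. Hspa1b and Hspa1a reach -4.00 and -3.68, while the listed endoplasmic reticulum genes and 3 of 4 small heat shock protein genes lie above 0.

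Chaperones of the endoplasmic reticulum, which fold secreted and membrane proteins, are the group most like the cytosolic ones in function. After stroke 4 of 16 of them rose, where 9.67% of all adjusted genes did, and none was listed lower. They were Calr, Hsp90b1, Pdia3 and Sdf2l1, with folds of 2.44 to 2.59 in the authors' deposited table. Hsp90b1, for example, had 265.0 TPM in stroke and 103.6 TPM in sham in the authors' deposited table (q = 0.00964). Hspa5, the Hsp70 of that compartment, was listed lower for mmpp, at 58.6 TPM in mmpp and 242.0 TPM in stroke in the authors' deposited table (q = 0.145), where 3.58% of adjusted genes were listed lower. In stroke against sham the 4 listed genes thus went opposite to the 6 cytosolic genes, which were chosen with their fall known. The other 12 of 16, Hspa5 among them, were not listed there. The difference between the groups of genes was not tested.

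Some immediate early genes, which cells switch on within minutes of a stimulus, were listed in the same directions as the chaperone genes. After stroke 9 of 20 were listed, 7 lower and 2 higher, of which 5 fell and 2 rose. Fos fell to 7.89 TPM in stroke, against 44.7 TPM in sham, in the authors' deposited table (q = 2.27e-06). Atf3 and Egr2 went the other way. Atf3 rose to 52.2 TPM in stroke, against 7.10 TPM in sham, in the authors' deposited table (q = 1.48e-23). Egr2 rose to 2.23 TPM in stroke, against 0.170 TPM in sham, in the authors' deposited table (q = 3.64e-08). In mmpp 3 of 20 were listed higher, Fos, Fosb and Nr4a3, and 1 lower, Egr3, whose mmpp mean is at the floor. Nr4a3, a nuclear receptor, rose to 5.56 TPM in mmpp, against 1.07 TPM in stroke, in the authors' deposited table (q = 0.00253). Of 10 genes known as glucocorticoid-induced, 1 fell and 2 rose after stroke. Over all adjusted genes 3.37% fell and 9.67% rose after stroke, and 1.24% were listed higher in mmpp. The count of 2 immediate early genes that rose and the counts of glucocorticoid-induced genes are not read as results about these lists. Tsc22d3, the leucine zipper gene that fell, had 28.5 TPM in stroke and 74.6 TPM in sham in the authors' deposited table (q = 0.0157), and was listed at 74.0 TPM in mmpp and 28.5 TPM in stroke (q = 0.334). The part of such rapid responses in the chaperone values was not tested.

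Genes with profiles most like those of the chaperones were sought among 659 other named genes listed in both tables with no mean at the floor. The profile was log2 mean TPM over the 3 groups, centred per gene, and likeness was the Euclidean distance to the mean profile of Hspa1a, Hspa1b and Dnajb1. The 8 closest were Iltifb (distance 0.236), Lyve1 (0.349), Cnpy1 (0.518), Pth2 (0.554), Sspo (0.572), Slc26a4 (0.603), Nr4a3 (0.615) and Fos (0.625). The 3 chaperone genes themselves lay at distances of 0.369 (Hspa1a), 0.603 (Hspa1b) and 0.971 (Dnajb1) from their mean. Most of the 8 had low means, where a fold is uncertain: Iltifb had 1.70 TPM in mmpp, 0.274 TPM in stroke and 2.19 TPM in sham, and Lyve1 0.275 TPM in mmpp, 0.0486 TPM in stroke and 0.337 TPM in sham, in the authors' deposited tables. Fos was the only 1 of the 8 with a mean over 10 TPM in any group.

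**Figure D4:**
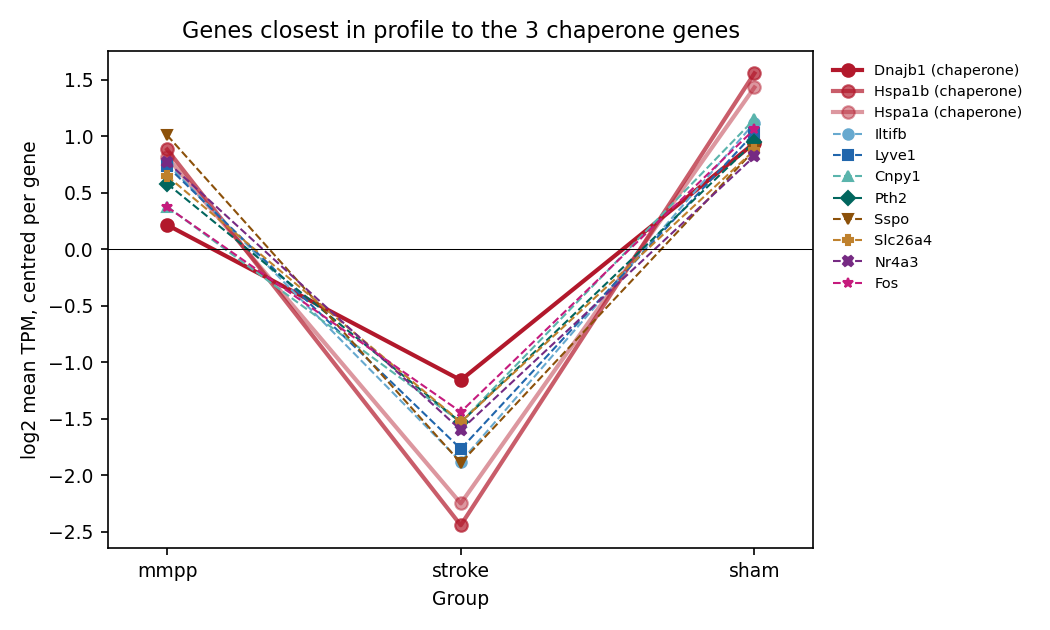
Profiles over the 3 groups of Hspa1a, Hspa1b and Dnajb1 (solid red lines) and of the 8 closest other genes (dashed lines), as log2 mean TPM centred on each gene's own mean. All are lowest in stroke, as being listed with opposite signs in both tables requires, and Hspa1a and Hspa1b dip further than the 8 other genes.

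Cell type markers moved as well, and in bulk tissue fewer cells of a type and less RNA per cell cannot be told apart. Pan-neuronal markers were listed lower for 6 of 10 genes after stroke, and 5 of them fell. The listed ones summed to 1391 TPM in stroke and 3403 TPM in sham, and the sums that follow are also over the listed genes of a list in the authors' deposited tables. Markers of thalamic relay neurons were listed lower for 5 of 8, summing to 85.3 TPM in stroke and 251.7 TPM in sham. In mmpp 3 of 8, Slc17a6, Gbx2 and Plekhg1, were listed higher, at 94.6 TPM in mmpp and 35.1 TPM in stroke. Their q-values were 0.772, 0.726 and 0.232. Plekhg1 is not in the sums for stroke against sham, so the mmpp sum cannot be set beside the sham sum. Among the relay neuron markers the glutamate transporter gene Slc17a6, which marks relay neurons of the labelled tissue, had 20.7 TPM in stroke and 63.7 TPM in sham in the authors' deposited table. Choroid plexus markers were listed lower for 7 of 8, at 394.1 TPM in stroke and 4400 TPM in sham, and erythrocyte markers for 2 of 5, at 1259 TPM in stroke and 3292 TPM in sham. All 8 microglial markers rose, to 7999 TPM in stroke, against 575.9 TPM in sham, as did 3 of 8 astrocyte and 4 of 7 mural markers. Of 8 endothelial markers 1 rose, and no oligodendrocyte marker of 7 was listed. Over all adjusted genes 9.67% were higher after stroke with a q-value under 0.05, 7.59% were listed lower, and 1.24% were listed higher in mmpp. The 1 of 8 is therefore not read as a rise of endothelial markers. Median log2 fold changes of listed genes, stroke over sham, were -1.33 for pan-neuronal, -1.62 for relay neuron and -2.16 for choroid plexus markers. They were -1.40 for erythrocyte markers and -1.76 for the 6 chaperone genes. The median was above 0 for microglial (3.27), astrocyte (2.64) and mural (1.44) markers. Each median holds only genes past the 2-fold limit, and the 6 were chosen with their fall known, so the sizes of the medians are not compared. The part of changing cell composition in the chaperone values was not tested.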

How the data were processed

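RNA of 9 samples was extracted with TRIzol and made into libraries with the SMARTER mRNA kit, per the labels' protocols. Per the submitters' processing notes, Bowtie2 2.2.3, TopHat2 2.0.12, HTSeq 0.6.0 and build GRCm39 were used, in roles not stated. No source used here names the program behind the authors' test. Per the file headers, the authors deposited group mean TPM with p-values, q-values and a log2 fold change, for stroke over sham and mmpp over stroke. That fold change equals the log2 ratio of the deposited means, with no pseudocount. Both tables give the same stroke means.

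The number of genes adjusted was taken as the count that turns p-values times that count, divided by q-values, into whole-number ranks (tolerance 0.001, listed genes with a q-value below 1 that no other listed gene shares), a step tested on simulated data. The rank was whole for 95.1% of 2924 such genes in stroke against sham and 98.3% of 121 in mmpp against stroke. Over all listed genes with a q-value below 1, tied ones included, it was whole for 80.4% and 25.2%. Rose, fell and changed are kept for authors' q-values under 0.05. The design foresaw a fit on values per library and otherwise the authors' values, and the second was done. The labels mention a table of raw counts with a column per sample, which was not analysed here. A p-value sets a difference against an estimate of spread. What spread the authors' test used is not known here, and it may be partly technical. The 6 genes, the 13 gene lists and the 9 marker lists were chosen with earlier results of these data known, and all 212 list symbols matched the gene name table. Named genes were the 6, listed genes of the lists, and the 8 closest profiles. The design foresaw up to 4 listed genes per list, and more were named for J-domain and immediate early genes. Hsp25-ps1 and genes named as not listed were added after values were seen. Promoters came from RefSeq (GRCm38.p6) and transcripts from GENCODE M21, which differ from the authors' build. Python 3.11.15 and pandas 2.3.3 were used.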

Additional observations from a re-analysis of the deposited data

How the results depend on the processing

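The 6 chaperone genes that fell after stroke were 4 at a q-value under 0.01, where Hsph1 and Chordc1 were lost, and 6 at a q-value under 0.1 or with a mean of at least 1 TPM required in the higher or in both groups. For mmpp against stroke, 0 of the 6 passed a q-value of 0.05 in the authors' deposited table, 2 passed 0.1, and 3 were listed at an unadjusted p-value under 0.05. Over all 13 lists, the genes called for mmpp against stroke were 1 in the main setting, 3 at a q-value under 0.1 and 12 by listing alone. With pseudocounts of 0.1 or 1 TPM, or with TPM rescaled to the genes outside the table, every listed fold change of the 6 kept its direction and stayed above 2-fold. That rescaling shifts all genes by 0.17 on the log2 scale for stroke over sham and by -0.07 for mmpp over stroke, and brought Chordc1 to -1.03. The count of genes with the longer heat shock element, 2 in the whole window, was 0 in the 250 bases before the start and 5 for at least 1 shorter form. No paired analysis was possible because the tables used here hold group means only, and the raw counts per sample that the labels mention were not analysed here. Leaving out replicates and count-based tests were therefore not run, and no depth limit is given.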
